A study of Mus musculus with 15 samples.

Results

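Transcription factors of the ETS, SOX and KLF families, together with GATA2 and TAL1, were followed in mouse myocardium through 10 genes: Ets1, Erg, Fli1, Sox7, Sox17, Sox18, Klf2, Klf4, Gata2 and Tal1. They were chosen by name, with earlier results of these data known. Every probe that the annotation of the array platform assigns to one of them was taken. This gave 19 of the 45281 probes, of which 16 lay above background on at least 5 of 15 arrays and were tested, with at least 1 tested probe for each of the 10 genes. The hearts came from male C57Bl/6J mice aged 10 weeks, in 3 groups of 5 arrays. In VEGF-B+DOX, AAV9-VEGF-B had been given 7 days ahead of doxorubicin; DOX received doxorubicin alone, and PBS received the saline buffer as the control injection. AAV9 is an adeno-associated virus serotype that reaches heart muscle well, VEGF-B is a vascular endothelial growth factor, and doxorubicin is an anthracycline chemotherapy drug known for damage to the heart. All hearts were collected 20 hours after the doxorubicin or PBS injection. None of these 3 groups had an empty vector or the vector without the drug, so the effect of VEGF-B and that of the vector cannot be told apart. The doses and the promoter of the vector are not given in the sources used here.

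These factors hold the gene program of the cells that line blood vessels. ETS factors such as ETS1, ERG and FLI1 bind a GGAA core in the regulatory DNA of most endothelial genes. The SOXF factors SOX7, SOX17 and SOX18 act in vessel growth and in arterial and lymphatic identity. KLF2 and KLF4 are switched on by laminar blood flow and damp inflammation and clotting, while GATA2 and TAL1 work in both blood-forming and endothelial cells.

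The values are log2 intensities of Illumina BeadChip probes as the authors deposited them. They had been brought to 1 common distribution before deposit, so the median was 6.92 on each of the 15 arrays, within a full span of 6.52 to 14.93. A probe counted as above background when it exceeded 6.92, the 95% limit of a background centred on 6.80. Folds are log2 differences between group means with the standard error of 1 limma fit over all arrays, with Benjamini-Hochberg adjustment of the p-values over all 24861 tested probes of a comparison. Folds had a standard error of 0.07 at the median, a precision set by the spread between arrays and by their number. Background seems not to have been subtracted before deposit, and where that holds the folds of dim probes such as Fli1 and Tal1 are too small. Cardiomyocyte markers were bright in all groups, with a summed linear intensity of 84419 to 95455 in VEGF-B+DOX, 76642 to 94677 in the hearts given doxorubicin alone and 84576 to 94275 in PBS. Arrays VEGF-B+DOX 5, DOX 5, PBS 4 and PBS 5 stood apart on the second principal component of all tested probes, at 15 to 19.4 against -14.5 to 2.3 for the others; the labels give no batch that would name this split.

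In VEGF-B+DOX against DOX, 7 of the 16 tested probes rose and 0 fell, and they belong to 6 genes: Ets1, Fli1, Sox7, Sox17, Sox18 and Gata2. Over all tested probes, 9.59% passed in this comparison, 6.42% upward and 3.17% downward. The median fold of the 16 probes was 0.26, beside -0.016 over all tested probes. On 5 of the 16 probes every VEGF-B+DOX array lay above every DOX array, which held for 5.19% of all tested probes, and for 2.56% in the other direction. In DOX against PBS, 0 of the 16 probes passed in limma, beside 0.322% of all tested probes, and 5 of the 16 had an unadjusted p under 0.05, beside 10.3%. Their median fold was 0.02, with 8 folds positive and 8 negative. These counts hang on single arrays: 2 of the 16 passed without DOX 2 or without VEGF-B+DOX 3, and calls over all tested probes, 80 in number, became 2 without DOX 1 and 487 without DOX 2. Without DOX 2 and VEGF-B+DOX 3 together, 4 of the 16 and 677 of all passed. In VEGF-B+DOX against PBS, 8 of the 16 rose and 0 fell, beside 11.4% of all tested probes in either direction, 6.72% upward and 4.71% downward, with a median fold of 0.42 beside -0.012. These 8 belong to the same 6 genes and Klf2. On 7 of them the groups did not overlap, which held for 5.46% of all tested probes upward and 4.24% downward. The 3 comparisons share arrays pairwise and are not independent of each other. Without the 4 arrays that stood apart, 6, 0 and 6 probes passed in VEGF-B+DOX against DOX, DOX against PBS and VEGF-B+DOX against PBS, and with that split as a term in the fit 7, 0 and 8.

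**Figure D1:**
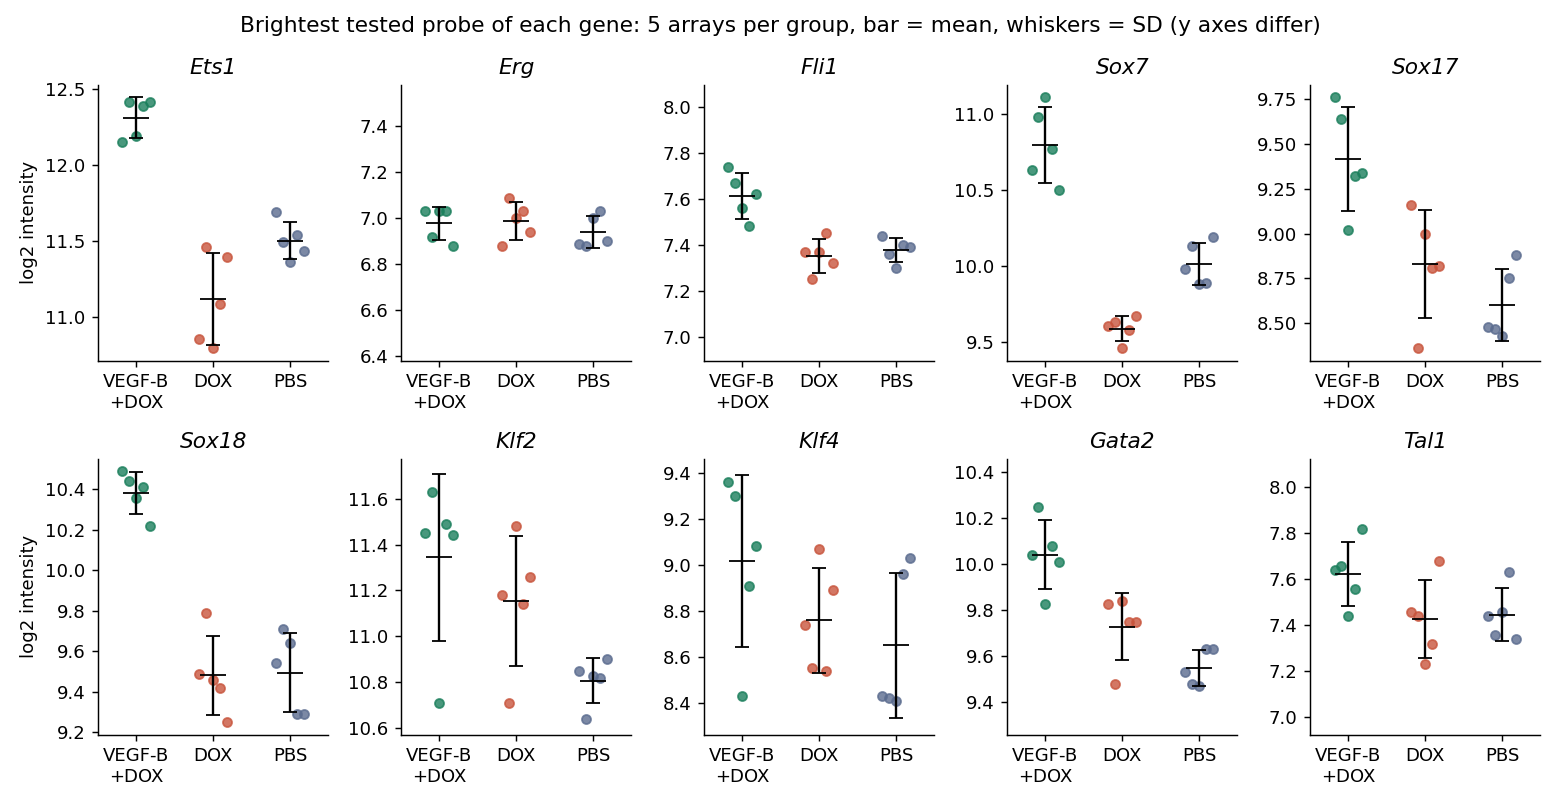
Log2 intensity of the brightest tested probe of each of the 10 genes, 1 point per array, for VEGF-B+DOX, DOX and PBS; the bar is the mean of 5 arrays and the whiskers are the SD, and the vertical axes differ between panels. The Ets1, Fli1, Sox7 and Sox18 points of VEGF-B+DOX lie above all DOX and PBS points, Erg shows no separation, and 1 VEGF-B+DOX array lies low for Klf2 (10.71) and Klf4 (8.43).

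Of the ETS members, Ets1, which encodes a factor active in endothelial cells and in lymphocytes, carried the largest rise. Its bright probe, ILMN_3157483, read 12.15, 12.42, 12.19, 12.39 and 12.42 in VEGF-B+DOX hearts, 10.85, 11.46, 10.79, 11.08 and 11.39 in DOX hearts, and 11.69, 11.49, 11.36, 11.54 and 11.43 in PBS hearts. The lowest VEGF-B+DOX array stood above the highest array of both other groups, while DOX arrays spread widely and 3 of 5 lay below all PBS arrays. Means were 12.31 ± 0.13, 11.11 ± 0.30 and 11.50 ± 0.12 (SD, n = 5 each) in VEGF-B+DOX, DOX and PBS. Against DOX the fold was 1.20 ± 0.12 on the log2 scale, or 2.30 times (limma, adjusted p = 2.06e-06), and 0.197% of all tested probes had a larger fold upward. Against PBS it was 0.81 ± 0.12, or 1.76 times (adjusted p = 0.000148). The fold of DOX against PBS, -0.39 ± 0.12 with a 95% interval from -0.63 to -0.14, did not pass (adjusted p = 0.188). It passed without DOX 2, the highest DOX array, at -0.47 (adjusted p = 0.0313). The other 3 Ets1 probes were dim. ILMN_2770739 exceeded background on 5 arrays and gave folds of 0.05, -0.03 and 0.02 in the 3 comparisons (adjusted p = 0.684, 0.914 and 0.89), while ILMN_1236290 and ILMN_2481426 exceeded it on 3 and 2 arrays and were not tested.

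Fli1 and Erg encode closely related ETS factors that keep endothelial identity in the adult. Fli1, probe ILMN_2621086, read 7.74, 7.67, 7.56, 7.48 and 7.62 in VEGF-B+DOX, 7.37, 7.25, 7.37, 7.45 and 7.32 in DOX, and 7.44, 7.36, 7.30, 7.40 and 7.39 in PBS. VEGF-B+DOX did not overlap with either group, though its lowest array stood 0.03 above the highest DOX array. Fli1 rose by 0.26 ± 0.06 against DOX (adjusted p = 0.00854). Against PBS its rise was 0.24 ± 0.06 (adjusted p = 0.0146), and its fold of DOX against PBS was -0.03 (adjusted p = 0.936). Without the 4 arrays that stood apart, the call against PBS ended, at 0.25 (adjusted p = 0.0597). Erg lay at the edge of background. Probe ILMN_1260248 read 6.88 to 7.03 in VEGF-B+DOX, 6.88 to 7.09 in DOX and 6.88 to 7.03 in PBS, exceeding background on 4, 4 and 2 arrays of VEGF-B+DOX, DOX and PBS. Its fold of VEGF-B+DOX against DOX was -0.01 with a 95% interval from -0.11 to 0.09 (adjusted p = 0.942), a range that holds for this near-background signal. The second Erg probe, ILMN_1253014, was not well above background on any of the 15 arrays.

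The SOXF genes Sox7, Sox17 and Sox18 encode the SOX factors of endothelial cells, and all 3 rose in VEGF-B+DOX. Sox7 had the largest of these folds against DOX. Probe ILMN_2889482 read 10.63, 10.98, 11.11, 10.77 and 10.50 in VEGF-B+DOX, 9.61, 9.63, 9.46, 9.58 and 9.67 in DOX, and 9.98, 10.13, 9.88, 9.89 and 10.19 in PBS. The 3 groups were fully separated, with PBS in the middle. Means were 10.80 ± 0.25, 9.59 ± 0.08 and 10.01 ± 0.14 (SD, n = 5 each) in VEGF-B+DOX, DOX and PBS. Against DOX the rise was 1.21 ± 0.10, or 2.31 times (adjusted p = 7.27e-07), with 0.185% of all tested probes rising more, and against PBS it was 0.78 ± 0.10, or 1.72 times (adjusted p = 6.51e-05). The second probe, ILMN_2653251, repeated this order with 9.07 to 9.51 in VEGF-B+DOX, 8.12 to 8.28 in DOX and 8.46 to 8.89 in PBS, with a rise of 1.05 ± 0.09 against DOX (adjusted p = 8.06e-07) and one of 0.65 ± 0.09 against PBS (adjusted p = 0.000135).

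DOX arrays lay below every PBS array on both Sox7 probes, a separation that held downward for 0.953% of all tested probes and upward for 0.981%. The folds of DOX against PBS, -0.42 ± 0.10 and -0.40 ± 0.09, nevertheless did not pass (adjusted p = 0.0925 and 0.0682). Both passed without VEGF-B+DOX 3, an array of neither group that enters through the shared estimate of the spread (folds of -0.42 and -0.40, adjusted p = 0.0489 and 0.0409), and the second passed without DOX 2 (-0.42, adjusted p = 0.0319) and with array weights (adjusted p = 0.0398). Another probe that the platform annotation assigns to Sox7, ILMN_1234505, was designed on another transcript record. It lay close to background at 7.15 ± 0.14, 7.09 ± 0.06 and 7.18 ± 0.10 in VEGF-B+DOX, DOX and PBS, and its folds of 0.07, -0.10 and -0.03 did not pass (adjusted p = 0.607, 0.665 and 0.858).

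Sox18, whose mutation in mice can cause vascular and lymphatic defects, separated VEGF-B+DOX from both other groups. Probe ILMN_2645321 read 10.49, 10.44, 10.36, 10.41 and 10.22 in VEGF-B+DOX, 9.49, 9.79, 9.46, 9.42 and 9.25 in DOX, and 9.54, 9.71, 9.64, 9.29 and 9.29 in PBS. DOX and PBS arrays were interleaved and all VEGF-B+DOX arrays were above them. Sox18 rose by 0.90 ± 0.10, or 1.87 times, against DOX (adjusted p = 1.25e-05) and by 0.89 ± 0.10, or 1.85 times, against PBS (adjusted p = 1.72e-05). DOX against PBS stood at -0.01 ± 0.10 with a 95% interval from -0.23 to 0.20 (adjusted p = 0.987).

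Sox17, a factor of arterial endothelium, was more variable. Probe ILMN_2747986 read 9.76, 9.64, 9.02, 9.32 and 9.34 in VEGF-B+DOX, 9.16, 8.36, 9.0, 8.81 and 8.82 in DOX, and 8.48, 8.47, 8.43, 8.75 and 8.88 in PBS. In VEGF-B+DOX, 4 of 5 arrays lay above all DOX arrays and all 5 above all PBS arrays. The fold was 0.59 ± 0.15, or 1.50 times, against DOX (adjusted p = 0.0155), and 0.81 ± 0.15, or 1.76 times, against PBS (adjusted p = 0.00127). The call against DOX ended without VEGF-B+DOX 2, at 0.53 (adjusted p = 0.0505). DOX against PBS stood at 0.23 ± 0.15 (adjusted p = 0.645). The dimmer probe ILMN_2784446 pointed the same way at 0.33 ± 0.18 against DOX (adjusted p = 0.302) and 0.47 ± 0.18 against PBS (adjusted p = 0.104); the second of these passed without VEGF-B+DOX 5, at 0.61 (adjusted p = 0.0264), with array weights, at 0.58 (adjusted p = 0.0184), and with the replicate number as a block, at 0.47 (adjusted p = 0.0306).

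The KLF genes spread widely within groups. Klf2, the shear-responsive factor, had probe ILMN_2604029 at 11.45, 11.63, 10.71, 11.49 and 11.44 in VEGF-B+DOX, 11.18, 10.71, 11.48, 11.14 and 11.26 in DOX, and 10.85, 10.64, 10.83, 10.82 and 10.90 in PBS. VEGF-B+DOX 3 and DOX 2 both read 10.71, inside the PBS range, while 4 of 5 arrays of each group lay above it. Klf2 rose by 0.54 ± 0.15, or 1.45 times, in VEGF-B+DOX against PBS (adjusted p = 0.0234). This call ended without VEGF-B+DOX 1, 2 or 4, at 0.51, 0.46 and 0.50 (adjusted p = 0.0597, 0.0744 and 0.0562), without PBS 2, at 0.49 (adjusted p = 0.0588), and without the 4 arrays that stood apart, at 0.55 (adjusted p = 0.0943). DOX against PBS gave 0.35 ± 0.15 with a 95% interval from 0.04 to 0.66 (adjusted p = 0.412), and with DOX 2 and VEGF-B+DOX 3 both left out it passed at 0.46 (adjusted p = 0.0049). VEGF-B+DOX against DOX gave 0.19 ± 0.15, interval -0.12 to 0.50 (adjusted p = 0.51).

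Klf4, the close relative of Klf2 that is also expressed in smooth muscle and monocytes, had 3 tested probes and passed on none. The brightest, ILMN_1241903, read 9.36, 9.30, 8.43, 8.91 and 9.08 in VEGF-B+DOX, 8.74, 8.55, 9.07, 8.54 and 8.89 in DOX, and 8.43, 8.42, 8.41, 8.96 and 9.03 in PBS, and all groups overlapped. PBS arrays fell into 3 low and 2 high values, the high ones being PBS 4 and PBS 5 of the arrays that stood apart. Its folds were 0.26, 0.11 and 0.37 in VEGF-B+DOX against DOX, DOX against PBS and VEGF-B+DOX against PBS (adjusted p = 0.413, 0.893 and 0.189), and those of ILMN_2999439 and ILMN_1221264 were 0.22, 0.11 and 0.33 and 0.16, 0.15 and 0.31. Against PBS, ILMN_1241903 and ILMN_1221264 passed without VEGF-B+DOX 3, at 0.51 and 0.41 (adjusted p = 0.0348 and 0.0406).

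Gata2, which encodes a zinc finger factor of endothelial and blood stem cells, rose against both groups. Probe ILMN_2612283 read 10.04, 10.25, 9.83, 10.08 and 10.01 in VEGF-B+DOX, 9.83, 9.48, 9.84, 9.75 and 9.75 in DOX, and 9.53, 9.48, 9.47, 9.63 and 9.63 in PBS. All VEGF-B+DOX arrays lay above PBS, and DOX took a middle place, with 4 of 5 arrays above all PBS arrays and DOX 2 within them. Gata2 rose by 0.49 ± 0.09, or 1.41 times, against PBS (adjusted p = 0.000894) and by 0.31 ± 0.09, or 1.24 times, against DOX (adjusted p = 0.0265). The call against DOX ended without VEGF-B+DOX 1, 2 or 4, at 0.31, 0.26 and 0.30, and without DOX 2 or DOX 4, at 0.25 and 0.32. Its adjusted p over all alternatives ran from 0.0105 to 0.0843. DOX against PBS gave 0.18 ± 0.09 (adjusted p = 0.48).

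Tal1, which encodes a basic helix-loop-helix factor needed to form blood, was dim. Probe ILMN_2839788 read 7.64, 7.66, 7.44, 7.56 and 7.82 in VEGF-B+DOX, 7.46, 7.44, 7.23, 7.32 and 7.68 in DOX, and 7.44, 7.36, 7.46, 7.63 and 7.34 in PBS, with overlap among all groups. Its folds were 0.20 ± 0.09 against DOX, with a 95% interval from 0.02 to 0.38 (adjusted p = 0.182), 0.18 ± 0.09 for VEGF-B+DOX against PBS (adjusted p = 0.221) and -0.02 for DOX against PBS (adjusted p = 0.972).

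**Figure D2:**
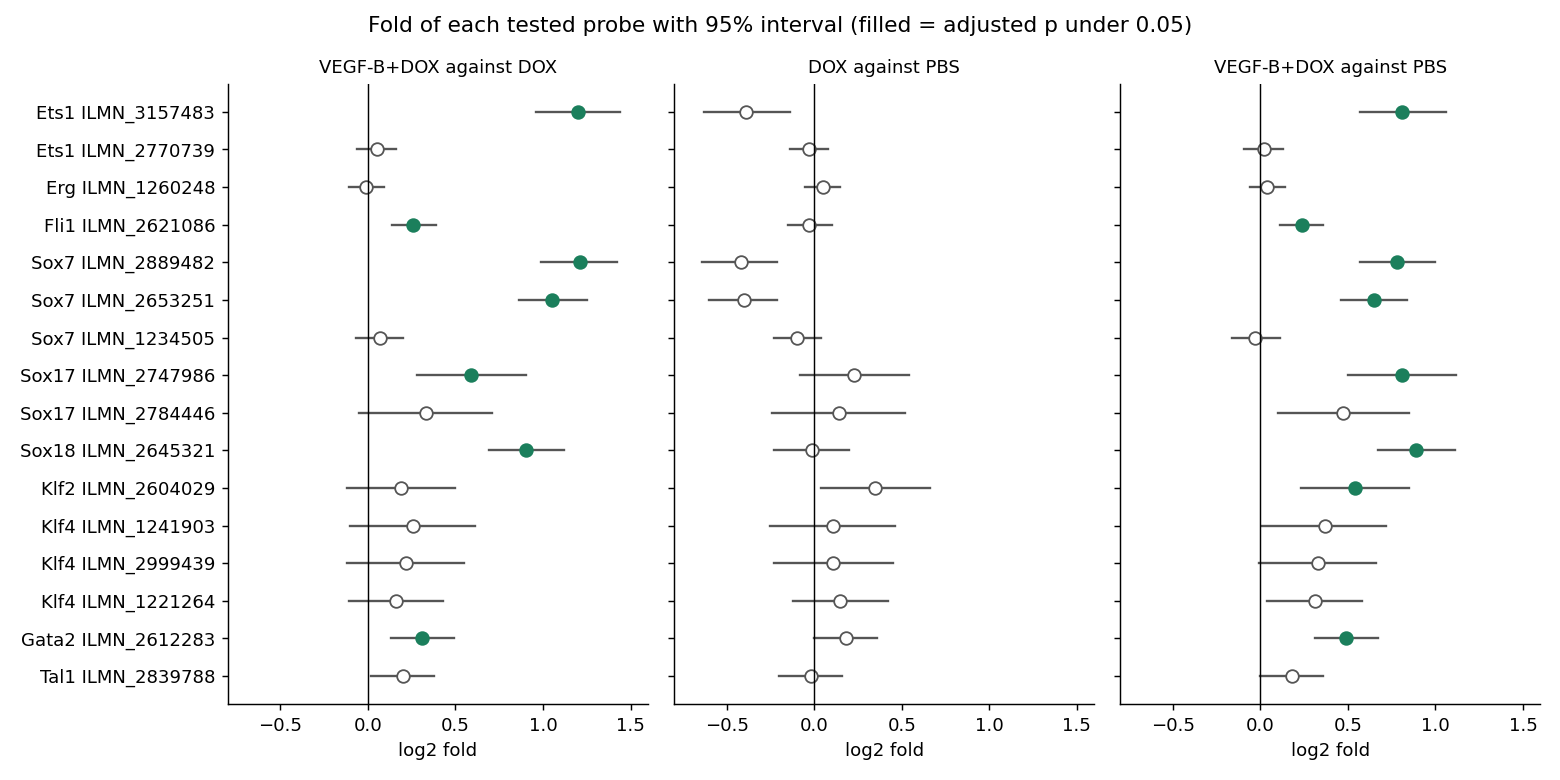
Log2 fold of each of the 16 tested probes with its 95% interval in VEGF-B+DOX against DOX, DOX against PBS and VEGF-B+DOX against PBS; filled points have an adjusted p under 0.05. Points are filled for 7, 0 and 8 probes, and all filled points lie to the right of 0, with the bright Ets1 probe and the Sox7 probe ILMN_2889482 farthest out against DOX, at 1.20 and 1.21.

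RefSeq promoter windows, 250 bases before to 50 bases after each transcript start in build GRCm38.p6, were at hand for 5 of the 10 genes, in 9 windows. Those of Gata2 and Klf2 are shown because both genes passed a test and ETS factors were among the genes that rose. Capitals mark the ETS core, GGAA on the printed strand or TTCC where it lies on the opposite one. The upstream Gata2 window lies at chr6:88193641-88193940, the downstream one at chr6:88198414-88198713 and the Klf2 window at chr8:72318812-72319111, all on the plus strand.
Gata2 upstream: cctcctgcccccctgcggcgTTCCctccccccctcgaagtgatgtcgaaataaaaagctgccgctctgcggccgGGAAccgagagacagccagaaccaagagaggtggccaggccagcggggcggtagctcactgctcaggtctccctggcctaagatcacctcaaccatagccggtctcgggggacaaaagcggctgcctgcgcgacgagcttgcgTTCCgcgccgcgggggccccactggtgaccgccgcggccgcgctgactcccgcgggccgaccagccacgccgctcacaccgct
Gata2 downstream: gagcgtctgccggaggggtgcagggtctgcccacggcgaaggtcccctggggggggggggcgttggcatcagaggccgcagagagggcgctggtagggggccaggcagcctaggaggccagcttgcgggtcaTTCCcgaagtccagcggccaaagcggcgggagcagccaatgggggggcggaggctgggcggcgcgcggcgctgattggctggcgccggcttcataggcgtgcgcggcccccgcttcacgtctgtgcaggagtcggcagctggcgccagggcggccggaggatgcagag
Klf2: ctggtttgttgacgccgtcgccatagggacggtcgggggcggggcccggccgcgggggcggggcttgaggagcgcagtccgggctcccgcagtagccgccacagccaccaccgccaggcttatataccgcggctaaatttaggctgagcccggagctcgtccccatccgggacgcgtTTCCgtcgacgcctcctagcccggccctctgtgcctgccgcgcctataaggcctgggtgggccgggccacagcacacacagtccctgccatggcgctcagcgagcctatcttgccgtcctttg
The windows shown hold 3, 1 and 1 ETS cores. Those not shown hold 2 for Klf4, 4 and 4 for Tal1, and 1, 4 and 2 for Erg. Klf4, Tal1 and Erg passed no test in the main fit. Of the 32851 windows in the table, 96.0% hold at least 1 such core on either strand and the core is thus present in nearly any such window. The KLF-type box CACCC was found once in the downstream Gata2 window and once in the Klf2 window, beside 57.5% of all windows with a match. The E-box CANNTG was found once, in the downstream Gata2 window, beside 72.3% of all windows. The GATA motif GATAA and the SOX motif ACAAT had 0 matches in the 3 windows, beside 25.4% and 31.0% of all windows with one. A match of letters is no evidence of binding, and the motifs were searched on both strands.

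Read by array, the genes did not move as 1 block. Genes were measured against the range of the 5 PBS arrays on the brightest tested probe of each. Of 10 genes, 9 lay above that range in VEGF-B+DOX 1, 2 and 5, 7 in VEGF-B+DOX 4 and 6 in VEGF-B+DOX 3. On these arrays 0 lay below it. The share of all tested probes outside the PBS range was not counted, so these counts have no background beside them. VEGF-B+DOX 3 had the highest Sox7 value of its group, 1.10 above the PBS mean, and the lowest Sox17, Klf2, Klf4, Gata2 and Tal1 values, with Klf2 and Klf4 at -0.10 and -0.22 from the PBS mean. Sox7 lay below the PBS range on all 5 DOX arrays. DOX 1, 3, 4 and 5 also shared Klf2 and Gata2 above that range. DOX 2 departed from them, with Klf2 and Gata2 inside the PBS range, Sox18 at 0.30 from the PBS mean and Sox17 at -0.24. DOX 3 paired the highest Klf2 of its group, 0.67, with the lowest Ets1 and Sox7, -0.71 and -0.55.

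**Figure D3:**
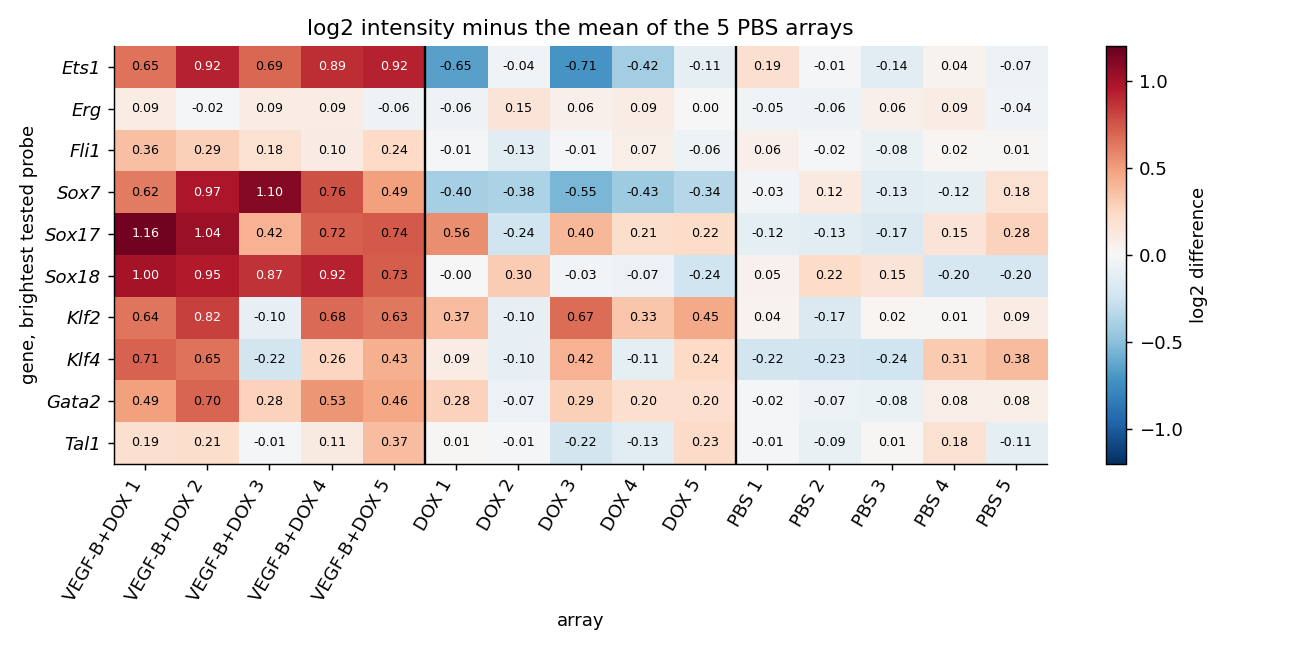
Log2 intensity of the brightest tested probe of each gene minus the mean of the 5 PBS arrays, for each of the 15 arrays; red is above and blue below the PBS mean. Ets1 and Sox7 run from 0.49 to 1.10 in VEGF-B+DOX and from -0.71 to -0.04 in DOX, while Klf2 lies above 0.3 in 4 of 5 arrays of both groups, with VEGF-B+DOX 3 and DOX 2 at -0.10.

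Related factors were looked at next, on the brightest tested probe of each gene. Beside the counts of these lists, 6.42% of all tested probes rose and 3.17% fell in VEGF-B+DOX against DOX. The share over the brightest probe of every gene was not computed. Among other ETS family genes, 4 of 16 tested rose and 0 fell in VEGF-B+DOX against DOX, and the list median was -0.01. They were Ets2 at 0.53 ± 0.07 (adjusted p = 4.33e-05), Elf4 at 0.56 ± 0.09 (adjusted p = 0.000411), Elk4 at 0.36 ± 0.08 and Elk3 at 0.34 ± 0.08. Among other SOX genes 1 of 12 rose, Sox13 at 0.44 ± 0.06 (adjusted p = 0.000113), with a list median of -0.01. Among other KLF genes 2 of 9 rose, Klf7 at 0.40 ± 0.07 (adjusted p = 0.00138) and Klf6 at 0.40 ± 0.12 (adjusted p = 0.0403), with a list median of 0.12.

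Of the GATA family and the partners of TAL1, 4 of 10 rose, with a list median of 0.27. Tcf4, an E protein, rose by 0.72 ± 0.07 (adjusted p = 3.8e-06), the LIM-domain-binding factor gene Ldb2 by 0.86 ± 0.14 (adjusted p = 0.000403), Lmo2, which bridges TAL1 and GATA factors, by 0.42 ± 0.09 (adjusted p = 0.00485) and Lyl1, a relative of Tal1, by 0.30 ± 0.07. Of 19 other endothelial transcription factor genes 9 rose and 1 fell, with a median of 0.27. Hey1, a Notch target of arterial cells, rose by 1.16 ± 0.11 (adjusted p = 1.52e-06), Bcl6b by 1.05 ± 0.15 and Hlx by 0.93 ± 0.14. Prox1, the master factor of lymphatic endothelium that is also expressed in cardiomyocytes, fell by 0.44 on the log2 scale (adjusted p = 0.00484).

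Genes that these factors are known to bind or regulate were counted too. The lists come from general knowledge and were chosen with earlier results of these data known. They overlap with each other (Cdh5 stands in 3) and share genes with the endothelial markers. Of 20 tested genes bound by ETS factors, 15 rose and 0 fell against DOX, with a median of 0.62. Cdh5, which encodes VE-cadherin, rose by 1.20 ± 0.11 (adjusted p = 1.53e-06), and the junction and adhesion genes Icam2 and Esam by 0.94 ± 0.09 and 0.90 ± 0.07. Of 10 genes regulated by SOXF factors, 6 rose and 1, Prox1, fell, with a median of 0.42. The receptor gene Notch4 rose by 0.92 ± 0.08 (adjusted p = 5.56e-07) and Egfl7, a vessel matrix gene, by 0.81 ± 0.09.

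Of 8 genes that respond to KLF2 and KLF4, 4 rose and 0 fell, with a median of 0.31. The list does not part genes that these factors raise from genes that they lower. The count and the median therefore give no direction of response. Neither Klf2 nor Klf4 passed in this comparison. Nos3, the endothelial nitric oxide synthase gene, rose by 0.96 ± 0.10 (adjusted p = 3.8e-06) and is also on the ETS list, and the prostaglandin transporter gene Slco2a1 rose by 0.46 ± 0.08. The fourth was Sele, the E-selectin gene, which was not well above background on any DOX array; it was at least 1.13-fold higher in VEGF-B+DOX, with means of 7.10 in VEGF-B+DOX and 6.78 in DOX (adjusted p = 0.000839), and it entered the test through the group where it was higher. Against the lowest signal above background on each array, 1.13-fold is the bound that the DOX arrays allow. Of 7 genes regulated by GATA2 or TAL1, 4 rose and 0 fell, with a median of 0.59, among them Emcn at 0.71 ± 0.12 and Pecam1 at 0.61 ± 0.11. In DOX against PBS, 0 of the 97 distinct genes tested in these 9 lists passed in limma, and 15 had an unadjusted p under 0.05. Over all tested probes 0.322% passed and 10.3% had such an unadjusted p, so nothing is read from that count; the list medians ran from -0.10 to 0.04.

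**Figure D4:**
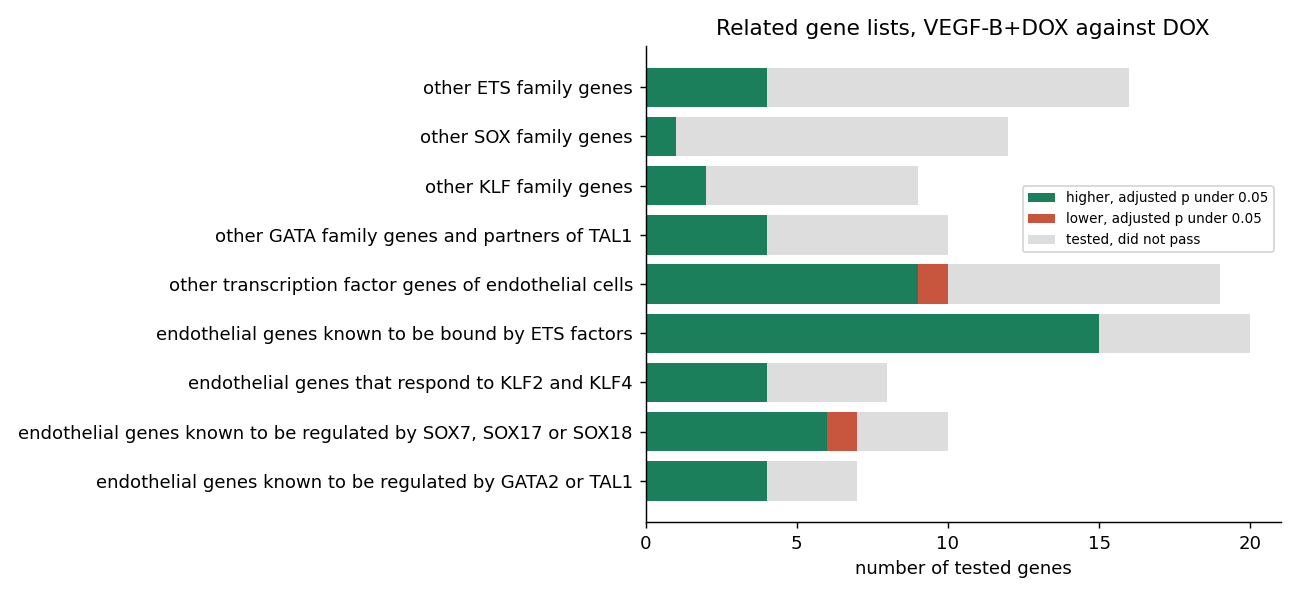
Number of tested genes in each of 9 related lists that rose (green), fell (red) or did not pass (grey) in VEGF-B+DOX against DOX, on the brightest tested probe of each gene. Genes bound by ETS factors have 15 of 20 risen, and other SOX family genes 1 of 12. Over all tested probes, 6.42% rose and 3.17% fell.

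Most markers of endothelial cells also rose in VEGF-B+DOX against DOX. Of 17 marker genes 15 were tested and 2, Ecscr and Fabp4, never exceeded background; 12 of the 15 rose and 0 fell in VEGF-B+DOX against DOX, with a median of 0.67, while 0 passed in DOX against PBS, with a median of 0.00. Their summed linear intensity was 38427 to 43028 in VEGF-B+DOX, 23569 to 26692 in DOX and 23507 to 25629 in PBS. In bulk tissue, more endothelial cells and more RNA per endothelial cell cannot be told apart, and the part of either in the rise of the members was not tested. The members were therefore also expressed as the difference from the mean log2 intensity of the 15 markers on the same array, a mean that was 0.63 higher in VEGF-B+DOX than in DOX and 0.03 higher in DOX than in PBS. Single markers also stood off this mean. Against DOX their folds ran from 0.08 for Kdr, above background on 3 of 5 DOX arrays, to 1.20 for Cdh5. Ets1 and Sox7 had folds of 1.20 and 1.21, so a rise beyond the mean is not particular to members. Relative to the marker mean, Ets1 differed by 0.57 and Sox7 by 0.58 in VEGF-B+DOX against DOX. In DOX against PBS they differed by -0.42 and -0.46. Groups did not overlap in these 4 cases. In VEGF-B+DOX against PBS the same differences were 0.15 and 0.12, with overlap. Sox18 differed by 0.27, -0.04 and 0.23 and Sox17 by -0.04, 0.20 and 0.15 in VEGF-B+DOX against DOX, DOX against PBS and VEGF-B+DOX against PBS, all with overlap. The share of all tested probes without overlap on this relative measure was not computed. Against DOX, a probe whose own level stays the same falls on it by the rise of the marker mean, 0.63. Such a probe can lack overlap for that reason alone, so negative differences there are not falls of the genes themselves. Klf2, Klf4 and Gata2 differed by -0.44, -0.37 and -0.32 against DOX relative to the marker mean, with overlap. Fli1, Tal1 and Erg differed by -0.37, -0.43 and -0.64 without overlap. These 3 probes are dim, and with background subtracted their own folds against DOX were 0.40, 0.30 and -0.02; the part of background in these differences was not tested.

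Other cell types that express some of these factors were checked by their own markers. T cell markers, of interest for Ets1, Fli1 and Klf2, summed to 582 to 604 in VEGF-B+DOX, 559 to 579 in DOX and 552 to 599 in PBS. These sums are over 5 probes, and 5 probes all at background would give 557. The VEGF-B+DOX and DOX sums did not overlap. Of 2 tested T cell genes 0 passed against DOX, Cd3d at 0.13 (limma, adjusted p = 0.0732) and Cd3g at 0.12 (adjusted p = 0.136). They exceeded background on 4 and 3 VEGF-B+DOX arrays and on 0 DOX arrays. B cell markers summed to 243 to 271 in VEGF-B+DOX, 236 to 295 in DOX and 255 to 261 in PBS over 2 probes, beside 223 at background. Macrophage and monocyte markers summed to 4069 to 6721 in VEGF-B+DOX, 3826 to 4917 in DOX and 3303 to 4946 in PBS, with 0 of 7 passing against DOX.

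Of the mast cell markers, which bear on Gata2 and Tal1, 1 of 5 rose against DOX, Kit at 1.24 ± 0.18 (adjusted p = 0.000139), a receptor gene that endothelial cells can also express; Cpa3 gave 0.10 ± 0.05 (adjusted p = 0.299). Erythroid markers, which bear on Tal1, summed to 20312 to 58340 in VEGF-B+DOX, 24621 to 58121 in DOX and 45285 to 62212 in PBS, with VEGF-B+DOX 3 and DOX 2 the highest of their groups. Platelet and megakaryocyte markers had 0 of 4 genes passing in each comparison. Of 4 tested neutrophil markers, 2 passed upward in DOX against PBS, S100a8 and S100a9 (adjusted p = 0.0102 and 0.00921), with means of 8.10 and 8.30 in DOX against 6.92 and 6.96 in PBS, where they exceeded background on 2 and 3 of 5 arrays. Smooth muscle and pericyte markers, which bear on Klf4, had 3 of 6 genes up against DOX, Pdgfrb by 0.64 ± 0.08, Kcnj8 by 0.50 ± 0.07 and Rgs5 by 0.76 ± 0.16, all genes of pericytes. The smooth muscle genes Acta2, Tagln and Myh11, named after their values were seen, gave 0.24, -0.01 and -0.30 against DOX (adjusted p = 0.414, 0.931 and 0.148), and Myh11 fell by 0.53 in VEGF-B+DOX against PBS (adjusted p = 0.00784). Kcnj8 fell by 0.35 in DOX against PBS (adjusted p = 0.0419). All 5 tested cell division markers passed upward against DOX, but 3 of them, Top2a, Cdk1 and Birc5, exceeded background on 3, 1 and 4 of 5 DOX arrays, so their folds have no exact size. The other 2, above background on all arrays, were Cdc20 at 1.54 ± 0.18 and Prc1 at 2.59 ± 0.31. The part of these cell types in the members' results was not tested.

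The genes whose profile over the 15 arrays was most like that of a member were found by the mean absolute difference between log2 values after the PBS mean of each probe was taken off. Nearest to Ets1 were Pcdh12 (0.113), Cd93 (0.137) and Kctd12b (0.141), where the median over all tested probes was 0.452. Nearest to Sox7 were Tpm4 (0.129), Pald1 (0.138) and Fam171a2 (0.144), beside 0.454. Nearest to Sox18 were Gask1b (0.098), Endod1 (0.101) and Notch4 (0.108), beside 0.417, and nearest to Sox17 were Mcf2l (0.148), Trim25 (0.149) and Kank3 (0.151), beside 0.443. For the smaller profiles of Gata2 and Fli1 the nearest were Btg1 (0.064), Zfp365 (0.080) and Ndel1 (0.081), beside 0.275, and Ccdc88c (0.049), Themis2 (0.053) and Tnfrsf1a (0.053), beside 0.157. These distances describe the same 15 arrays and carry no test.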

How the data were processed

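Total RNA of myocardium was amplified to biotin-labelled cRNA and hybridised to Illumina arrays, 1 per sample, per the labels' protocols. The authors deposited log2 intensity values with 2 decimals; the log2 scale was read from their range. Their software and normalization are not given in the sources used here. Sorted values of any pair of arrays differed by at most 0.01, with the few highest ranks left out of this check. A raw table has 30 columns of per-sample values (15 signals and 15 detection values) with names that fit no label, and it stayed out.

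The mode of all values, 6.80, served as background, with an SD of 0.0729 from the values below it, and probes above the one-sided 95% limit of 6.92 on at least 5 of 15 arrays were tested. Group means were fitted to all 15 arrays together with limma 3.58.1 in R 4.3.3 (12 residual degrees of freedom, variance trend), with Benjamini-Hochberg adjustment over all 24861 tested probes per comparison and a threshold of 0.05. The fit was tested on simulated data. Of 45281 probes, 34885 carry 1 symbol, 18 several and 10378 none; the gene identifiers of 34807 were found in a RefSeq table and 0 symbols were updated. Tables and figures were made with Python 3.11.15, pandas 2.3.3 and matplotlib 3.10.9.

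All member probes were named. From each related list, up to 3 genes of smallest p in VEGF-B+DOX against DOX were named, and up to 2 that passed in DOX against PBS; Elk3, Lyl1, Prox1, Cdk1 and Birc5 were named after their values were seen. The members and lists were chosen with earlier results of these data known. Each group is described as 5 mice, but no label ties an array to an animal, so p-values measure the spread between these samples. Alternatives covered the variance prior, filter, samples in the fit, block, array weights, background subtraction with an offset of 50 and left-out arrays. Those on the 4 arrays that stood apart were chosen after seeing the data.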

Additional observations from a re-analysis of the deposited data

Results flagged for a closer look

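In 48 groups of 5 arrays, 1 for each tested probe and group, 3 had an array whose gap to its nearest neighbour exceeded 0.71 of the range of the group; chance alone flags about 1 in 20 groups. Klf2 read 10.71 in VEGF-B+DOX 3, low against the nearest value of its group at 11.44. Gata2 read 9.48 in DOX 2, low against 9.75. The Sox7 probe ILMN_2653251 read 8.89 in PBS 5, high against 8.57.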

How the results depend on the processing

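Over 26 alternatives, 37 of 48 folds kept their side of the threshold (11 of 15 calls, and 26 folds that never passed), and 0 reversed. The calls that ended are given with their genes above; beside those, Gata2 against DOX also ended with no filter (adjusted p = 0.0634), with only both groups compared in the fit (0.0632) and without the 4 arrays that stood apart (0.0527), and Klf4 probe ILMN_1221264 against PBS passed with array weights (0.38, adjusted p = 0.0489). In VEGF-B+DOX against DOX, calls on members ran from 5 to 7 with each array left out and those over all probes from 1627 to 2597, with 3601 under array weights against 2383. In VEGF-B+DOX against PBS they ran from 7 to 10 and from 2008 to 2946. In DOX against PBS, member calls were 0 to 2 with each array left out (2 without DOX 2 or VEGF-B+DOX 3), 1 under array weights (Sox7) and 4 without DOX 2 and VEGF-B+DOX 3 (Ets1, Klf2 and both Sox7 probes). Calls over all probes in that comparison, 80, were 53 without the variance trend, 201 with array weights, 677 without DOX 2 and VEGF-B+DOX 3, 1 without the 4 arrays that stood apart and 143 with their split as a term. With each array left out they ran from 2 to 487: 2, 487, 11 and 21 without DOX 1, 2, 3 and 4, 26, 28, 17 and 22 without PBS 2, 3, 4 and 5, and 43 without VEGF-B+DOX 2. The background share for DOX against PBS is therefore loose; the cause was not tested. Same-numbered arrays correlated from -0.412 to 0.631 in their deviations, and not every array correlated best with its own number, so the numbers were not taken as pairs. With the replicate block, member calls were 7, 0 and 9 in VEGF-B+DOX against DOX, DOX against PBS and VEGF-B+DOX against PBS. Subtracting background left 7, 0 and 8 and raised dim folds, that of Fli1 to 0.40 against DOX and 0.36 against PBS. Erg, Fli1, Tal1, Ets1 probe ILMN_2770739 and Sox7 probe ILMN_1234505 gave signals near background.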

Other observations

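VEGF-B+DOX 3 and DOX 2, the arrays with low Klf2, also had the highest erythroid sums of their groups, 58340 and 58121, beside 20312 to 30436 and 24621 to 36686 in the other arrays of VEGF-B+DOX and DOX. Their smooth muscle and pericyte sums were 15913 and 14846, beside 12205 to 15450 in the other VEGF-B+DOX arrays and 8109 to 13457 in the other DOX arrays; VEGF-B+DOX 1, where Klf2 read 11.45, had the 15450. VEGF-B+DOX 3 had the highest cell division sum, 4317, beside 1343 to 3164 in the rest of its group, and DOX 2 had 920, beside 636 to 687. These pairs of arrays were picked after their values were seen, and the part of these genes in the low Klf2 values was not tested.

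SOX18 is known to switch on Prox1 in lymphatic endothelium of mouse embryos. Prox1 is also expressed in cardiomyocytes, and a link between Sox18 and Prox1 in these hearts was not tested. Lymphatic markers had 0 of 5 genes up and 2 down in VEGF-B+DOX against DOX, beside 6.42% of all tested probes up and 3.17% down. The 2 were Prox1 at -0.44 ± 0.09 (limma, adjusted p = 0.00484) and Ccl21a at -0.42 ± 0.12 (adjusted p = 0.0277). In VEGF-B+DOX against PBS, Ccl21a fell by 0.57 (adjusted p = 0.00313), Prox1 gave -0.28 ± 0.09 (adjusted p = 0.0693) and Lyve1, named after its value was seen, rose by 0.62 ± 0.18 (adjusted p = 0.0333). Lyve1 gave -0.11 ± 0.18 in VEGF-B+DOX against DOX (adjusted p = 0.808) and 0.73 ± 0.18 in DOX against PBS (adjusted p = 0.105).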
